A study of Homo sapiens with 6 samples.

Results

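Transcription start site (TSS) libraries were compared with RNA-seq libraries made from the same RNA, gene by gene. The genes compared were the 12264 of 14574 in the deposited table that had a normalised read count of at least 10 in all 4 parental columns. They were tested in 2 parental TSS libraries and 2 parental RNA-seq libraries of HCT116 cells, an established human colorectal carcinoma line. Per the labels, TSS replicate 1 and RNA-seq replicate 1 share 1 RNA sample, and TSS replicate 2 and RNA-seq replicate 2 share the other. All 4 libraries came from cells that carry LARP1 and had been given 250 nM TAK228, an inhibitor of the mTOR kinase, for 48 h, with the drug renewed after 24 h. The RNA was taken from the 40S to 80S fractions of a 10% to 50% sucrose gradient and depleted of ribosomal RNA, so untreated cells and polysomal RNA are not part of the comparison. For the TSS libraries only, the RNA was first treated with a phosphatase, then decapped, and an RNA oligo was ligated to the freed 5′ ends. The libraries of LARP1 knockout cells are not analysed here.

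Most mRNAs made by RNA polymerase II carry a 7-methylguanosine cap, and removing it leaves a 5′ phosphate to which an oligo can be joined. RNAs of RNA polymerase III and of mitochondria do not carry that cap. mRNAs of ribosomal proteins and of several translation factors start with a terminal oligopyrimidine (TOP) tract, a C followed by a run of pyrimidines, which LARP1 binds together with the cap. When mTOR is inhibited, TOP mRNAs leave polysomes and are held outside them.

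The values were gene totals and not positions of 5′ ends, so the comparison concerns how many reads each gene received in the 2 library types. The TSS libraries held 26955481 and 24446561 reads and the RNA-seq libraries 19038642 and 25323973. Reads outside the mitochondrial chromosome numbered 9063478 and 6984443 in the TSS libraries and 6771393 and 7633063 in the RNA-seq libraries. MT-RNR2, the large mitochondrial ribosomal RNA, took 55.2% and 59.0% of reads in the TSS libraries and 55.3% and 57.9% in the RNA-seq libraries. The genes compared held at least 99.9% of the reads of each library. At the threshold, genes just inside (PPP1R3F, CAPS, ARHGDIB) had a lowest value of 10.2 and genes just outside (ARHGAP31, MYLK, PNPLA5) one of 9.87. A further 54 genes reached 10 in both TSS libraries and in neither RNA-seq library, and 102 genes the other way round. All 6 epithelial markers listed were among the members (CDH1, EPCAM, KRT8, KRT18, KRT19 and CLDN4), no leukocyte or endothelial marker had a row, and 1 of 5 fibroblast markers was a member.

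Both library types gave nearly the same profile over the 12264 genes. Pearson's r of log2(value + 1) across genes was 0.984 for the first RNA sample and 0.982 for the second, against 0.985 between the TSS libraries and 0.983 between the RNA-seq libraries; this is a description over genes that share libraries and depth. The median log2 difference, TSS minus RNA-seq, was -0.11, and it was the same over all 14522 genes tested. Of the members, 11860 (96.71%) lay within 1.5-fold of that median and 29 (0.24%) lay more than 2-fold from it. The limma test on log2(value + 1) called 6 members higher and 64 lower in TSS libraries at an adjusted p under 0.05. Over all genes tested, 0.523% were called, 0.0689% higher and 0.454% lower.

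The direction of these calls rests on the scaling. Centring each library on its own median moved all differences up by 0.15 and left 5 members higher and 3 lower, with 0.0482% of all genes tested called higher and 0.0207% lower. With the RNA sample as a replicate block, the deposited scaling gave 36 members higher and 604 lower (0.358% and 4.34% of all genes tested), and the centred values 111 higher and 88 lower (0.868% and 0.709%). In the blocked fit each gene has 1 residual degree of freedom and limma took the whole spread from the trend across genes, so its p-values measure little of a gene's own replicate error. Without TSS replicate 1 or TSS replicate 2 the unblocked test called 3 and 5 genes in all, and without RNA-seq replicate 1 or 2 it called 402 and 173. Most class medians are therefore given below also relative to the median of all members, which cancels any change of library scaling.

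**Figure D1:**
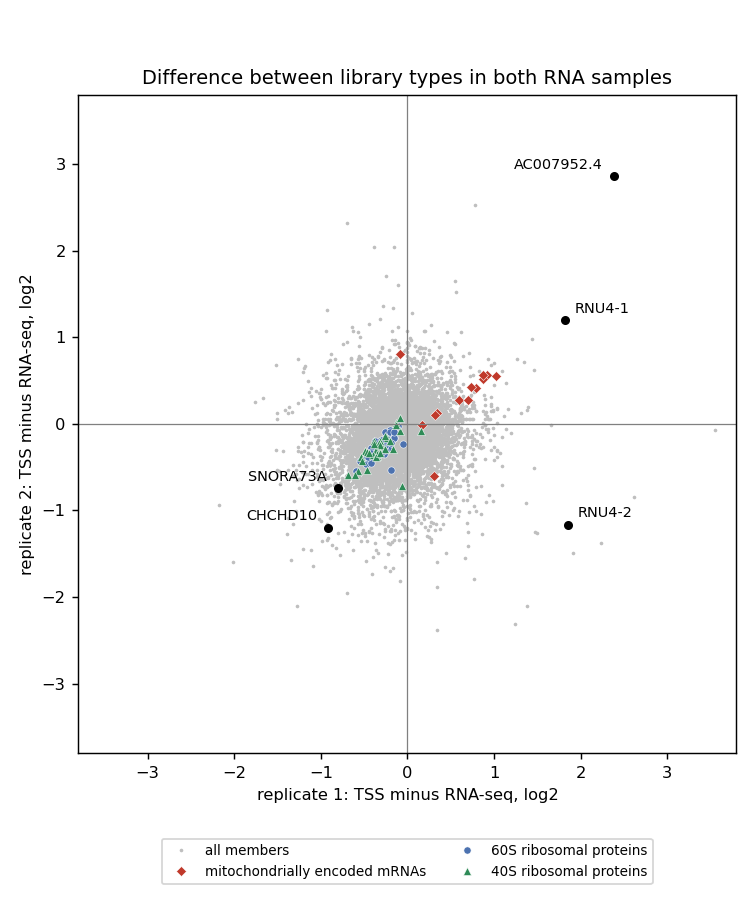
Log2 difference between library types, TSS minus RNA-seq on log2(value + 1), in the first RNA sample (horizontal) and in the second (vertical), 1 point for each of 12264 genes. Most mitochondrially encoded mRNAs lie above 0 on both axes and most ribosomal protein genes below 0 on both, while RNU4-2 lies on opposite sides of 0 in the 2 samples.

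The difference followed the annotated length of the transcript. In the shortest decile of members with an annotated length (122 to 953 bases, 1227 genes) the median difference was -0.23, and it climbed step by step to -0.00 in the longest decile (5742 bases and over, 1225 genes). The contrast between the shortest and the longest decile was -0.25 in the first RNA sample and -0.18 in the second. Of the 64 members called lower, 50 were shorter than 1000 bases, and 27 of these 50 were ribosomal protein mRNAs. Both TSS libraries lay below both RNA-seq libraries for 53.1% of the shortest decile and 17.3% of the longest, against 33.6% of all genes tested. Exon number ran with length, from -0.17 in genes with the fewest exons to -0.04 in those with the most. With GC content the RNA samples went opposite ways. In the first, the median was -0.04 in the decile lowest in GC and -0.11 in the highest, and in the second -0.16 and -0.06, so that the medians over both lay between -0.14 and -0.08. Giant mRNAs listed for their length (39 members, such as FAT1, which encodes a large atypical cadherin) had a median of 0.04, or 0.15 above all members. None was called, with or without the block, and 5 were higher when centred with the block.

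**Figure D2:**
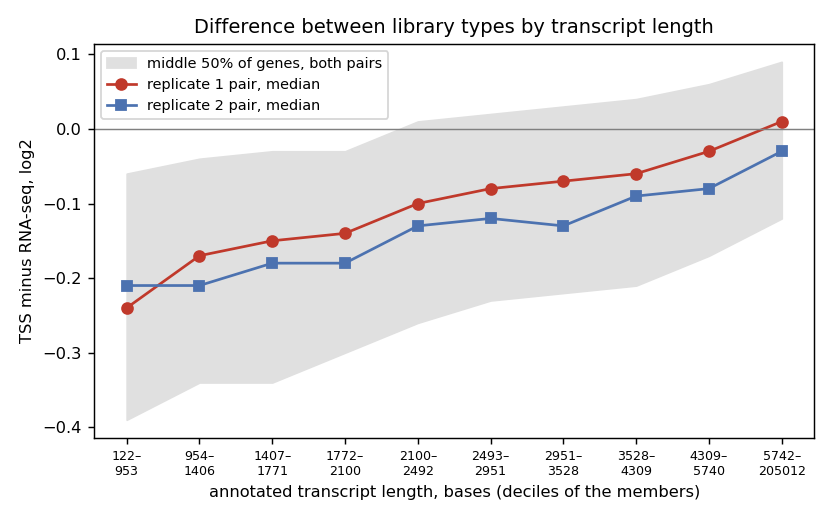
Median log2 difference, TSS minus RNA-seq, in deciles of the members by annotated transcript length in bases, for each RNA sample, with the middle 50% of genes shaded. The medians climb with length in both RNA samples, with a contrast of -0.25 and -0.18 between the shortest and longest decile.

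Among 80 ribosomal protein mRNAs, 29 were called lower in TSS libraries and none higher, against 0.454% and 0.0689% of all genes tested. Of the 33 mRNAs of the 40S subunit, 13 were called lower and none higher, with a median of -0.31. Of the 47 mRNAs of the 60S subunit, 16 were called lower and none higher, with a median of -0.28. Relative to all members the medians were -0.20 and -0.17. Both TSS libraries lay below both RNA-seq libraries for 30 of 33 and 46 of 47, against 33.6% of all genes tested. The calls on single genes depend on the scaling. Centred values left 1 of the 80 called lower, and centred values with the replicate block 17, while the deposited values with the block gave 65. In that order, 0.0207%, 0.709% and 4.34% of all genes tested were called lower.

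The first 20 bases from the RefSeq start (build GRCh38.p14) are given for 3 of the lowest ribosomal protein mRNAs, for RPL3, which was among the least changed, and for EEF1A1, with the pyrimidine run at the start in capitals.
RPS27 (chr1:153990762-153990781, plus strand): CCTTTCCggcggtgacgacc
RPS21 (chr20:62387103-62387122, plus strand): CCTTTCTCTCTCgcgcgcgg
RPL36A (chrX:101391011-101391030, plus strand): CTTTCTTTCCgcgccgatag
RPL3 (chr22:39319604-39319623, minus strand): CTCTaccggcgggatttgat
EEF1A1 (chr6:73521013-73521032, minus strand): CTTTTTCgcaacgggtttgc

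RPS29, a small protein of the 40S subunit, had 11309 and 12622 normalised reads in the TSS libraries and 18130 and 19079 in the RNA-seq libraries (log2 difference -0.64 ± 0.08 SE, limma adjusted p = 0.00447). RPS27 had 18378 and 18656 normalised reads in the TSS libraries, against 27215 and 27194 in the RNA-seq libraries (-0.56 ± 0.07 SE, adjusted p = 0.00455). RPL36A had 8844 and 8978 in the TSS libraries and 13373 and 13087 in the RNA-seq libraries (-0.57 ± 0.07 SE, adjusted p = 0.00447). For all 3 genes the groups did not overlap and the gap between library types was several times the gap between replicates. RPS21 followed with 6647 and 7595 in TSS libraries against 10149 and 11402 in RNA-seq libraries (-0.60 ± 0.09 SE, adjusted p = 0.00718), and RPL37 with -0.47 ± 0.07 SE (adjusted p = 0.0103).

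RPS6, RPL5 and RPL11 lay near the medians of their lists, -0.31 for 40S and -0.28 for 60S mRNAs. RPS6, the subunit protein phosphorylated downstream of mTOR, had a log2 difference of -0.31 ± 0.08 SE that did not pass the unblocked test (limma adjusted p = 0.12; 4.26e-05 with the block). RPL5 and RPL11, which bind 5S ribosomal RNA, had -0.25 and -0.29 (adjusted p = 0.223 and 0.172; 0.00149 and 6.13e-05 with the block). At the other end, RPL7A had -0.07, FAU -0.01 and RPS28 0.04. As a share of reads outside the mitochondrial chromosome, 60S mRNAs took 17.5% and 16.6% in TSS libraries and 19.0% and 18.5% in RNA-seq libraries. The 40S mRNAs took 11.2% and 10.9% in TSS libraries and 12.6% and 12.5% in RNA-seq libraries.

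The other classical TOP mRNAs, which encode translation factors and related proteins, had 1 called gene. Their 25 members had a median of -0.14, which is -0.03 relative to all members, and 18 lay below the median of all members. Both TSS libraries lay below both RNA-seq libraries for 16 of 25 (64.0%, against 33.6% of all genes tested). With the block 9 were called lower, against 4.34% of all genes tested, and with centred values none, blocked or not. The 1 called lower was EEF1B2, an exchange factor subunit for EEF1A1, with 20688 and 20945 normalised reads in TSS libraries and 27331 and 27045 in RNA-seq libraries (log2 difference -0.39 ± 0.07 SE, limma adjusted p = 0.0325). EEF1A1, the most abundant TOP mRNA, had 682930 and 714177 in TSS libraries and 765701 and 771783 in RNA-seq libraries, and did not pass (-0.14 ± 0.11 SE, adjusted p = 0.687). EEF2, the elongation factor that moves the ribosome along, had 0.09 ± 0.08 SE (adjusted p = 0.749), PABPC1, which binds poly(A) tails, -0.14, and TPT1 -0.20 (adjusted p = 0.736 and 0.472). TPT1 passed with the block (adjusted p = 0.0262). LARP1 itself had 717 and 745 in TSS libraries against 633 and 770 in RNA-seq libraries, with overlapping groups (0.07 ± 0.11 SE, adjusted p = 0.883).

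Genes with a TOP-like start had a median close to that of other genes. With the deposited scaling a larger share of genes with such a start was called lower, a difference that was not tested. Read on the gene's own strand, a C followed by at least 4 pyrimidines at the RefSeq start occurred in 5.66% of 9052 members and in 4.07% of 35116 RefSeq promoters. The 512 members with such a start had a median difference of -0.10 with 24 called lower, and the other 8540 had -0.11 with 23 called lower. Centred values left 1 of the 512 and 2 of the 8540 called lower. Of the ribosomal protein members with a RefSeq start, 44 of 64 held it. Without ribosomal proteins the medians were -0.08 (468 genes, 6 called lower) and -0.11 (8520 genes, 19 called lower). In the shortest decile without them they were -0.23 (40 genes, 5 called lower) and -0.24 (581 genes, 12 called lower). Among all members of the shortest decile, the 60 ribosomal protein members had a median of -0.34 and the other 1167 members one of -0.22. Restricted to the top decile by level, those medians were -0.34 (60 genes) and -0.17 (160 genes). No test was made between these sets.

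**Figure D3:**
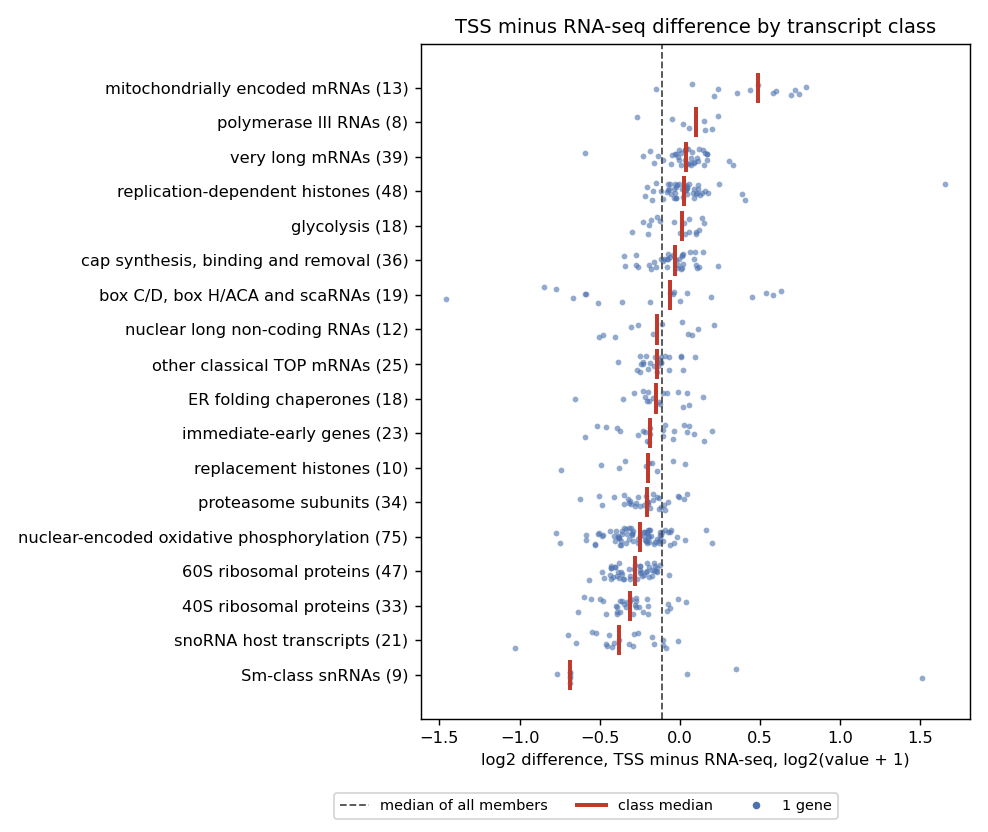
Log2 difference, TSS minus RNA-seq, for each member of 18 transcript classes (points) with the class median (red bar) and the median of all 12264 members (dashed line, -0.11); the number of members is in brackets. Mitochondrially encoded mRNAs have a median of 0.49, ribosomal proteins -0.28 and -0.31, and snoRNA host transcripts -0.38.

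Spliced host transcripts of small nucleolar RNAs were the list with the lowest median of those not dominated by copies of 1 RNA. They carry snoRNAs in their introns, most encode no protein, and several have TOP starts. Of 21 members 7 were called lower and none higher, with a median of -0.38 or -0.27 relative to all members. With the block 13 were called lower, centred 1, and centred with the block 8. Of all genes tested, 0.454% were called lower, 4.34% with the block, 0.0207% centred and 0.709% centred with the block. The median annotated length in this list was 767 bases, and the shortest length decile of members had a relative median of -0.12. SNHG1, the host of a group of box C/D snoRNAs, had 1129 and 1227 normalised reads in TSS libraries and 1827 and 1995 in RNA-seq libraries (log2 difference -0.70 ± 0.09 SE, limma adjusted p = 0.00461). Its RefSeq start has a run of only 3 pyrimidines.
SNHG1 (chr11:62855866-62855885, minus strand): CTCatttttctactgctcgt
GAS5, a host transcript long known as a TOP RNA, had 4583 and 5263 in TSS libraries and 6597 and 6896 in RNA-seq libraries (-0.46 ± 0.08 SE, adjusted p = 0.0297). SNHG12 had -0.65 and SNHG8 -0.46 (adjusted p = 0.0467 and 0.038). SNHG16 (-0.11) and SNHG17 (-0.01) lay at or above the median of all members.

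Several short mRNAs of small mitochondrial proteins were among the genes called lower. Nuclear-encoded subunits of oxidative phosphorylation had a median of -0.25 over 75 members, or -0.14 relative to all members, with 4 called lower and none higher. With the block 19 were called lower, centred none, and centred with the block 6. Of all genes tested, 0.454% were called lower, 4.34% with the block, 0.0207% centred and 0.709% centred with the block. The median annotated length in this list was 761 bases. COX6C, a small subunit of cytochrome c oxidase, had 342 and 365 normalised reads in TSS libraries and 580 and 609 in RNA-seq libraries (log2 difference -0.75 ± 0.11 SE, limma adjusted p = 0.0103). NDUFB1, a subunit of complex I, had 163 and 145 in TSS libraries and 252 and 277 in RNA-seq libraries (-0.77 ± 0.15 SE, adjusted p = 0.0342). COX17, a copper chaperone for cytochrome c oxidase, and MRPL33, a protein of the mitochondrial ribosome, had -0.78 and -0.75 (adjusted p = 0.0427 and 0.0342).

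CHCHD10, a protein of the mitochondrial intermembrane space, had the largest difference of the genes of above-median level that were called lower. Its counts were 147 and 145 in TSS libraries and 279 and 334 in RNA-seq libraries (log2 difference -1.06 ± 0.15 SE, limma adjusted p = 0.00718). Its RefSeq start is shown for its run of 7 pyrimidines, as long as that of RPS27.
CHCHD10 (chr22:23767953-23767972, minus strand): CTTTTTTgcgccggctgtga
Other genes of above-median level with large differences were HSBP1L1 (-0.87, adjusted p = 0.0342) and FAM156B (-0.84, 0.0479). SEC61G, a subunit of the protein channel of the endoplasmic reticulum, had -0.84 (0.0438). POP5, a protein of RNase P and RNase MRP, had -0.82 (0.0442). ACADVL, a fatty acid oxidation enzyme whose transcript is 2227 bases long, and ZNF692 also passed (-0.72 and -0.70, adjusted p = 0.0211 and 0.0442). FAM156B has a near-identical copy in the genome, so its reads could be split between loci. Of CHCHD10, these 6 genes and the 4 mitochondrial ones above, edgeR's quasi-likelihood test without the block called CHCHD10 and COX6C, and the others lost the call.

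mRNAs encoded by the mitochondrial genome had the highest median of the classes examined. Their 13 members had a median of 0.49, or 0.60 relative to all members, with 2 called higher and none lower. With the block 10 were called higher. Of all genes tested, 0.0689% were called higher without the block and 0.358% with it. MT-ATP6, a subunit of ATP synthase, had 18764 and 21951 normalised reads in TSS libraries and 10280 and 15279 in RNA-seq libraries (log2 difference 0.70 ± 0.13 SE, limma adjusted p = 0.0342). MT-ND1, a subunit of complex I, had 9620 and 11857 in TSS libraries and 5242 and 8015 in RNA-seq libraries (0.72 ± 0.14 SE, adjusted p = 0.0392). Both TSS libraries lay above both RNA-seq libraries for 4 of the 13 genes, these 2 included, against 7.77% of all genes tested. MT-ND2 (0.79) and MT-CYB (0.75) had larger differences and more spread between replicates, and did not pass without the block (adjusted p = 0.203 and 0.175; 8.44e-32 and 2.96e-33 with it). MT-CO3 (0.08) and MT-ND3 (-0.15) did not follow.

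The mitochondrial values also differed between the RNA samples. The 13 mRNAs summed to 666669 and 822199 normalised reads in TSS libraries and 516062 and 739646 in RNA-seq libraries, higher in the second RNA sample than in the first in both types. As a share of all reads they took 2.76% and 2.64% in TSS libraries and 2.01% and 2.40% in RNA-seq libraries, so on that scale the TSS libraries went the other way. Relative to all members, the class median was 0.79 in the first RNA sample and 0.54 in the second. It was 1.00 without RNA-seq replicate 2, 0.34 without RNA-seq replicate 1 and 0.85 without TSS replicate 1. The mitochondrial ribosomal RNAs did not share the difference: MT-RNR2 had -0.02 ± 0.22 SE and MT-RNR1 0.10 ± 0.21 SE (limma adjusted p = 0.986 and 0.914). MTATP6P1, a nuclear pseudogene with 671 of 681 bases identical to MT-ATP6, moved with it (0.72 ± 0.14 SE, adjusted p = 0.0353), and reads of one could have been counted for the other. The sum of MT-ATP6 and MTATP6P1 had a difference of 0.70.

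**Figure D4:**
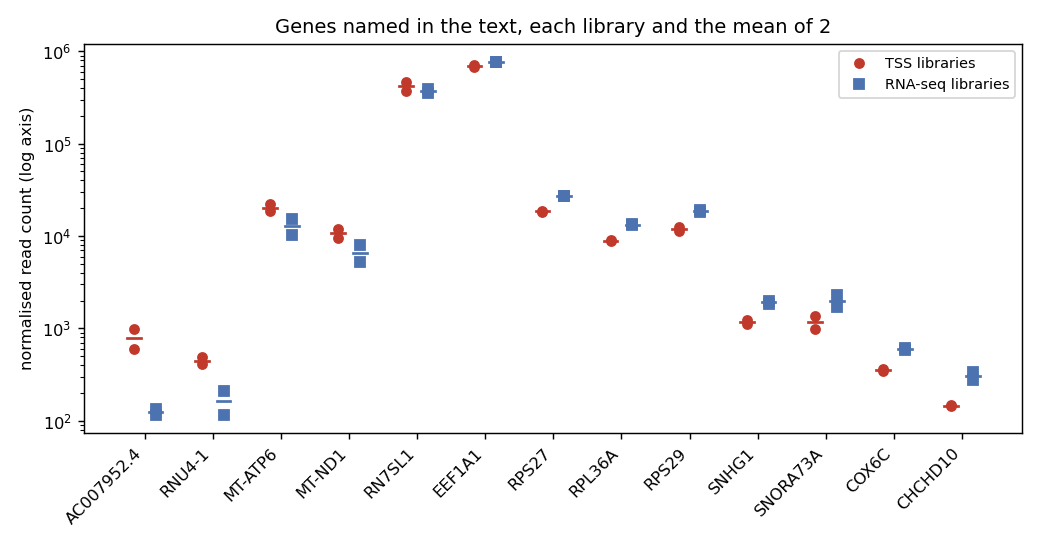
Normalised read counts on a log axis for 13 genes in each TSS library (circles, left) and each RNA-seq library (squares, right), with the mean of 2 libraries as a bar. RNU4-1, MT-ATP6 and MT-ND1 are higher in both TSS libraries than in both RNA-seq libraries, EEF1A1 is close in both types, and RPS27, SNHG1 and CHCHD10 are lower.

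RNAs of RNA polymerase III lack the 7-methylguanosine cap. None was called without the block and 2 were called higher with it, against 0.358% of all genes tested. The 8 members of this list, in which RMRP has 2 entries, had a median of 0.10, or 0.21 relative to all members. That relative median was 0.06 in the first RNA sample and 0.36 in the second, and 0.03 to 0.37 when 1 library was left out. RN7SL1, the RNA of the signal recognition particle, had 370493 and 465718 normalised reads in TSS libraries and 351497 and 395374 in RNA-seq libraries (log2 difference 0.16 ± 0.12 SE, limma adjusted p = 0.677). RMRP, the RNA of RNase MRP, had 277360 and 311513 in TSS libraries and 285458 and 293628 in RNA-seq libraries (0.02), and RN7SK, a regulator of transcription elongation, 268835 and 309347 against 289024 and 306831 (-0.05). The second RMRP entry had 1020 and 1992 in TSS libraries and 1541 and 1222 in RNA-seq libraries (0.05), opposite ways in the RNA samples. RPPH1, the RNA of RNase P, had 0.15, and both TSS libraries lay above both RNA-seq libraries. RN7SL3, a copy of RN7SL1, had 9701 and 12713 in TSS libraries and 9139 and 10222 in RNA-seq libraries (0.20 ± 0.11 SE, adjusted p = 0.522; 0.0184 with the block). RN7SL2 went opposite ways in the RNA samples, with 266366 and 555258 in TSS libraries and 415872 and 256058 in RNA-seq libraries; with the block it passed, at an adjusted p of 0.0417. As a share of reads outside the mitochondrial chromosome, the list took 15.2% and 19.2% in TSS libraries and 15.3% and 14.0% in RNA-seq libraries.

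Among 9 spliceosomal RNAs, RNU4-1 was the 1 called, and it was higher in TSS libraries. It had 407 and 488 normalised reads in TSS libraries and 114 and 212 in RNA-seq libraries (log2 difference 1.51 ± 0.21 SE, limma adjusted p = 0.00718), and the groups did not overlap. RNU4-2, the other gene for U4 RNA, had 344 and 86.5 in TSS libraries and 94.2 and 195 in RNA-seq libraries, higher in 1 RNA sample and lower in the other (0.35 ± 0.44 SE, adjusted p = 0.827). Both sequences are shown because they differ at only 4 of 141 bases, given in capitals (GENCODE 29, build GRCh38, chr12:120293097-120293237 and chr12:120291763-120291903, both on the minus strand).
RNU4-1: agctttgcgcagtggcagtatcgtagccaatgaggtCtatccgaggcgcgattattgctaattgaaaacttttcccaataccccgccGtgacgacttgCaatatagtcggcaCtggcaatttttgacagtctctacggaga
RNU4-2: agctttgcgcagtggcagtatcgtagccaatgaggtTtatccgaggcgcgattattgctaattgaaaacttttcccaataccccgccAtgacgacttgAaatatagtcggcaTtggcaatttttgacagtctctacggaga
Reads of one could have been counted for the other, and the sum of both was 752 and 575 in TSS libraries and 209 and 407 in RNA-seq libraries, a difference of 1.17. The list's median of -0.69 describes copies of 1 RNA, since 5 of its 9 members are U1 genes with identical values, 12.6 and 21.6 in TSS libraries and 24.2 and 30.5 in RNA-seq libraries. U2 RNA (RNU2-2P) had 0.05.

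The largest difference of all members was that of AC007952.4 (GENCODE 29 name; gene ENSG00000262202 of the table), a lincRNA at chr17:19112000-19112636 (GRCh38, minus strand) that spans copies of the U3 snoRNA gene SNORD3D. It had 602 and 974 normalised reads in TSS libraries and 114 and 133 in RNA-seq libraries (log2 difference 2.63 ± 0.18 SE, limma adjusted p = 5.83e-06). It held the whole of SNORD3A with 214 of 217 bases identical, and SNORD3A had 4119 and 5549 in TSS libraries and 4687 and 5309 in RNA-seq libraries (-0.06). Summed, the 2 genes differed by 0.12. Most of that sum was SNORD3A, so it had little room to differ from SNORD3A alone. HIST2H2AA4, a histone H2A gene, showed the same arrangement: 77.2 and 125 in TSS libraries and 44.4 and 20.7 in RNA-seq libraries (1.66, adjusted p = 0.0438), beside its copy HIST2H2AA3, which matched it over 549 bases. HIST2H2AA3 alone had 0.08, with 2873 and 3069 in TSS libraries. The sum of both histone genes differed by 0.12, and it too was mostly the more abundant copy. Whether reads were divided differently between copies in the 2 library types was not tested.

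Other small RNAs went both ways. Of 19 box C/D, box H/ACA and Cajal body RNAs 1 was called lower and none higher. With the block 6 were lower and 1 higher, against 4.34% and 0.358% of all genes tested. SNORA73A, which lies within the SNHG3 and RCC1 genes on chromosome 1, had 981 and 1361 normalised reads in TSS libraries and 1710 and 2284 in RNA-seq libraries (log2 difference -0.77 ± 0.14 SE, limma adjusted p = 0.0325). SNORA73B, 94.1% identical to it, had -0.51 (adjusted p = 0.213; 5.62e-08 with the block), and SNORA63 -1.46 (0.0955; 0.00379 with the block). The second SCARNA2 entry had 0.58 (adjusted p = 0.49, and 9.32e-10 with the block), while the first had 0.0022 (0.998, and 0.995 with the block). Histone mRNAs that are made in S phase and end without a poly(A) tail had a median of 0.02 over 48 members. Relative to all members it was 0.13, with 0.02 in the first RNA sample and 0.27 in the second. HIST2H2AA4 was the 1 called, and with the block 2 were higher. The 10 replacement histones, whose mRNAs are polyadenylated, had a median of -0.20, or -0.09 relative to all members, and none called. With the block H2AFZ, H1FX and H1F0 were lower (limma adjusted p = 0.00677, 0.00938 and 0.0458).

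No other class held a called gene without the block. The 36 genes that make, bind or remove caps had a median of -0.03, or 0.08 relative to all members. Glycolytic enzymes (18 genes) had 0.01, or 0.12 relative to all members. Chaperones of the endoplasmic reticulum (18) had -0.15, or -0.04 on the relative scale. Immediate-early genes (23) had -0.18, or -0.07 relative, and proteasome subunits (34) -0.21, or -0.10 relative. With the block, 3 proteasome subunits were called lower (PSMA1, PSMA3 and PSMB1, adjusted p = 0.00145, 0.021 and 0.0348), and so were 2 immediate-early genes (IER2 and IER3, 0.000179 and 0.0312). Of all genes tested, 4.34% were called lower with the block. When centred with the block, 3 glycolytic genes were higher (ALDOA, PKM and GPI), against 0.868% of all genes tested. GAPDH had 43898 and 43203 normalised reads in TSS libraries and 43642 and 41763 in RNA-seq libraries (log2 difference 0.03 ± 0.07 SE, limma adjusted p = 0.933), and ACTB had 0.07 ± 0.09 SE (adjusted p = 0.832). Among 12 nuclear long non-coding RNAs none was called without the block; with it 1 was higher and 2 lower. MALAT1 had 10486 and 15000 in TSS libraries and 8863 and 13198 in RNA-seq libraries (0.21 ± 0.16 SE, adjusted p = 0.676; 0.00907 with the block). NEAT1 went the other way (-0.41, adjusted p = 0.402; 4.55e-06 with the block).

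By gene biotype, protein-coding genes were at -0.10, or 0.01 relative to all members (11270 members, 3 called higher and 54 lower). Long non-coding biotypes together had a median of -0.21, or -0.10 relative to all members (652 members, 1 higher and 8 lower). Antisense genes were at -0.22 and lincRNAs at -0.21, or -0.11 and -0.10 relative to all members. Pseudogene biotypes together had -0.19, or -0.08 relative to all members (283 members, 1 higher and 1 lower). The 1 called lower was RPS2P5, a processed copy of a ribosomal protein gene (-0.37, limma adjusted p = 0.0442), whose reads could be shared with its parent. Among processed transcripts 5 of 100 were called lower, against 0.454% of all genes tested. GUSBP11 had the largest of these differences, with 38.6 and 53.4 normalised reads in TSS libraries and 102 and 115 in RNA-seq libraries (-1.24 ± 0.24 SE, limma adjusted p = 0.0342). These 5 include the snoRNA hosts SNHG1 and GAS5 described above. The hosts SNHG12 and SNHG8 are counted among the called antisense genes and lincRNAs. The host list had 7 called lower and the long non-coding biotypes 8. The biotype counts are therefore not separate from the host list. ST20-MTHFS, a readthrough gene that shares exons with its neighbours, had the largest difference of the coding genes that were lower (-1.69, adjusted p = 0.0381). GENCODE marks 134 members as readthrough genes, and their differences had an SD of 0.44, against 0.25 for the other members.

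The size of the difference between library types was close to that between replicates, and part of both was shared. Across all members the SD of the log2 difference between TSS and RNA-seq was 0.322 in the first RNA sample and 0.336 in the second. Between replicates it was 0.306 within TSS libraries and 0.330 within RNA-seq libraries. In the most abundant decile these SDs were 0.193 and 0.182 between types, and 0.136 and 0.189 between replicates. The TSS minus RNA-seq difference of the first RNA sample correlated with that of the second at r = 0.16 over all members and r = 0.51 in the most abundant decile. The replicate difference in TSS libraries correlated with that in RNA-seq libraries at r = 0.10 and r = 0.39 in the same sets. These are descriptions across genes, which share libraries and depth. The called genes sat at the same end: 49 of the 70 called members belonged to the most abundant decile.

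**Figure D5:**
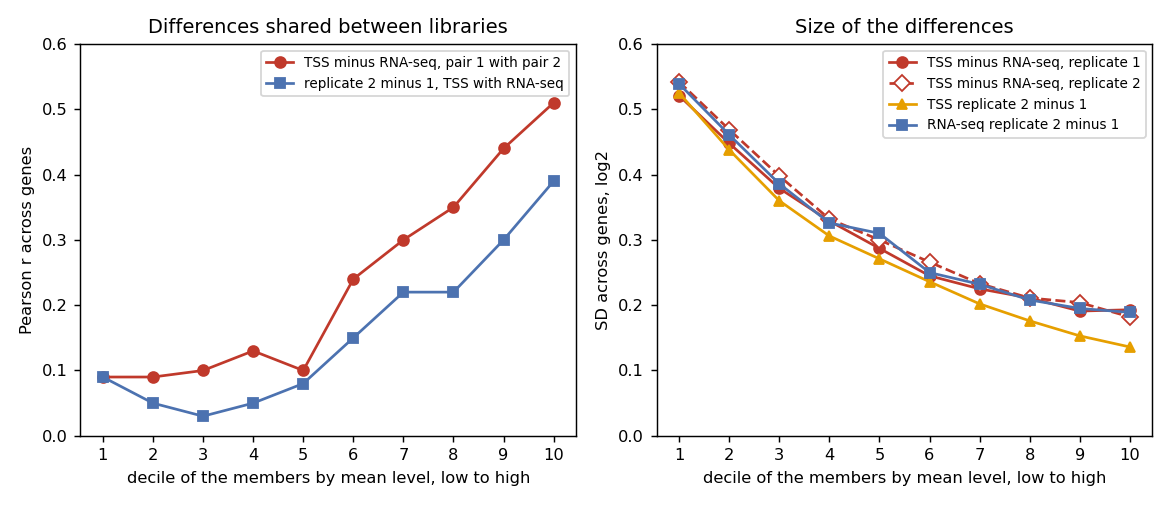
Left, Pearson's r across genes between the type differences of both RNA samples and between the replicate differences of both library types; right, SD across genes of each difference in log2; both by decile of the members by mean level. Shared differences grow to r = 0.51 and 0.39 in the top decile while the SDs shrink.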

How the data were processed

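Per the submitters' processing notes, reads were processed with STAR 2.6, RSEM, SAMtools and DESeq2 on GRCh38; no source used here states the annotation release, strand setting or filters. The deposited values are a signal per gene: the reads of each library over a single scaling factor, from which whole reads were recovered for 100% of values (tolerance 0.001). No spike-in row is in the table.

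Genes that reached 1 in 2 or more of the parental libraries (14522) were tested with limma 3.58.1 (R 4.3.3), trend on, on log2(value + 1), TSS minus RNA-seq, Benjamini-Hochberg adjusted, called under 0.05, without a block; fold changes of low genes are understated on this scale. Prior degrees of freedom were 12.9 and residual ones 2. An exact permutation test of 2 against 2 libraries cannot go below p = 0.333, so none is given. The count tests edgeR 4.0.16 and DESeq2 1.42.0 on the recovered reads were alternatives; edgeR called 10 genes higher and 6 lower. The fit was tested on simulated data.

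The labels state that same-numbered TSS and RNA-seq libraries share an RNA sample; their deviations from the group means correlated at r = 0.10 across members, and at 0.39 in the most abundant decile. The replicates are described in the labels as biological.

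Of the table's IDs, 99.7% matched GENCODE 29 (GRCh38), which gave coordinates and lengths (median of a gene's basic transcripts); starts are RefSeq's (GRCh38.p14). Members, classes and lists were chosen with earlier results of these data known. Named genes are a fixed set, the called members of above-median level with the largest differences, 2 per class by adjusted p (or the most abundant) and 1 per biotype and direction; others named were picked after their values were seen. Reads of near-identical, overlapping or antisense genes could not be told apart.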

Additional observations from a re-analysis of the deposited data

How the results depend on the processing

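Numbers of genes called depended on nearly every choice. The deposited scaling gave 10 higher and 66 lower; with the replicate block this became 52 higher and 630 lower. Centring left 3 lower and TMM factors 8. Without a filter on low values 1 was higher and 0 lower (1449 genes had an unadjusted p under 0.05), with the minimum of 10 in all 4 libraries 6 were higher, and without the intensity trend 4 and 3. A pseudocount of 0.1 gave 4 and 41. edgeR called 6 lower; DESeq2 called 18 higher and 42 lower. At an adjusted p under 0.01, 4 were higher and 6 lower. Among the 66 lower at 0.05, 5 had a log2 difference of at least 1 in size. Leaving out 1 library gave 1 to 52 higher and 2 to 366 lower, with the lone library of that type assumed to vary like the others. Fits chosen after seeing the data gave 126 and 103 (centred, with the replicate block), 110 and 152 (edgeR with the block) and 23 higher (DESeq2 with the block). The causes were not tested.

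Of the class medians relative to all members, 136 alternative values stayed within 1 SD of the 2 pairs and 26 moved further. Leaving out 1 library gave -0.20 to -0.13 for 60S ribosomal proteins and 0.34 to 1.00 for mitochondrially encoded mRNAs, 0.03 to 0.37 for polymerase III RNAs, -0.24 to 0.18 for box C/D, H/ACA and Cajal body RNAs, -0.92 to -0.23 for spliceosomal RNAs, -0.19 to -0.07 for oxidative phosphorylation and 0.07 to 0.20 for S-phase histones. The 40S (-0.24 to -0.16), snoRNA host (-0.29 to -0.22) and length (-0.26 to -0.19) values moved by less than 1 SD of the pairs. None of the genes named by rule reversed its direction while called. Depth limits genes near a value of 10, where 1 read is worth 0.897 to 1.35.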

Other observations

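Of 2258 tested genes outside the rule (below 10 in at least 1 library), 6 were called by limma, 4 higher and 2 lower in TSS libraries. The largest was a 7SK entry that overlaps RN7SK on the same strand and holds all 328 of its bases. It had 1530 and 3083 reads in TSS libraries and 49 and 0 in RNA-seq libraries (normalised 1373 and 3921 against 66.0 and 0). Summed with RN7SK, the difference was -0.03 on the log2 scale, but nearly all of that sum was RN7SK, which had -0.05 alone. A second RPPH1 entry was labelled antisense but lies on the same strand as RPPH1. It had 51 and 78 reads in TSS libraries and 1 and 6 in RNA-seq libraries. Both RPPH1 entries together differed by 0.15, as did the far more abundant RPPH1 alone. A second SCO2 entry (23 and 14 reads) and AC027796.3 (23 and 19 reads) were listed at 0 in both RNA-seq libraries, and both overlap other genes of the table on the same strand. The 2 lower genes were RP11-70C1.3, with 12 and 7 reads in TSS libraries and 36 and 40 in RNA-seq libraries, and AC011462.1, with 21 and 6 against 34 and 47. How reads were divided between overlapping entries is not given in the sources used here, and its part in these values was not tested.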
